A study of Mus musculus with 16 samples.

Results

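Rab GTPases and sorting nexins are 2 gene families that direct membrane traffic, and their transcripts were followed in mouse embryonic stem (ES) cells leaving naive pluripotency. Members were chosen by symbol: Rab or Snx followed by a number (with at most one further letter for Rab), with at least 10 counts in at least 2 libraries. The rule took 80 of the 27179 genes in the table, 50 Rab and 30 Snx genes. Another 9 symbols of these forms (Rab17, Rab27b, Rab37, Rab3c, Rab40b, Rab42, Rab44, Rab7b and Rab9b) did not reach the minimum. Of the 80 members, 78 had enough counts to be tested, and Rab20 and Rab36 did not. The study held ES cells, of a line that the labels do not name, in either of 2 media, both with leukaemia inhibitory factor (LIF) and 2i, the paired inhibitors CHIR99021 (3 uM, against GSK3) and PD0325901 (1 uM, against MEK). In 2i/LIF the base was serum-free; serum/LIF+2i held 10% fetal bovine serum. All cells came from serum/LIF culture, had been adapted to their medium for 3 passages and were used for at most 9. Cells were collected at 0 h, still in maintenance medium, or 12, 24 or 40 h after a change to serum-free medium lacking 2i and LIF, which gave 8 groups of 2 libraries. Cells that began in serum/LIF+2i are called serum-grown cells here, and the others 2i/LIF cells. The exit media differed in their base: a mix made with glutamine-free DMEM and 2 mM added glutamine for cells from serum, and the cells' own base medium for those from 2i/LIF. Nothing in the labels says whether replicates were separate cultures, so p-values measure the spread between these libraries, which may be technical.

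Rab proteins are small GTPases that mark membranes. Bound to GTP they sit on a particular compartment and recruit effectors such as tethers and motors. Guanine nucleotide exchange factors load them with GTP, GTPase-activating proteins switch them off, and GDP dissociation inhibitors carry the inactive form through the cytosol. Sorting nexins bind phosphoinositides through a PX domain, and those that also carry a BAR domain bend endosomal membrane into the tubules from which retromer and related complexes return receptors and transporters to the cell surface or the Golgi. In ES cells these routes serve the uptake and recycling of nutrient transporters, growth factor receptors and adhesion proteins.

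Total counts per library ran from 5931381 to 11142744, and members held 0.378% to 0.427% of them. Levels of one gene in different libraries are given in CPM, counts scaled to the effective library size (the total count times edgeR's TMM factor), and levels of different genes are compared in RPKM, which is CPM divided by gene length in kilobases. The 5 naive ES cell markers summed to between 4397 and 4711 CPM at 0 h and to between 105 and 138 CPM at 40 h. The sum of 4 markers of the formative epiblast went from at most 170 to at least 1843 CPM. Most of it was Dnmt3b, at 1771 and 1689 CPM in serum-grown cells at 40 h. There Otx2 fell from 94.6 and 90.8 CPM at 24 h to 11.3 and 9.29 at 40 h. Fgf5 fell from 7.08 and 5.40 to 2.76 and 3.58, and Pou3f1 rose from 71.3 and 68.7 to 162 and 141. Summed levels of 6 fibroblast markers went from between 16.4 and 17.1 CPM at 0 h to between 4.41 and 10.1 CPM later in 2i/LIF, and lay between 5.40 and 12.0 CPM throughout in serum-grown cells. The fall in 2i/LIF was mostly Pdgfrb, at 13.4 and 12.3 CPM at 0 h and 1.25 and 1.22 at 40 h. Thy1 rose there from 0.689 and 0.456 CPM to 5.89 and 4.21, Postn was at 0, and the others stayed at or under 2.73 CPM. Summed levels of 4 trophectoderm markers went from between 14.6 and 19.8 CPM at 0 h to between 2.99 and 3.97 CPM at 40 h, and those of 4 neural markers from at most 4.85 CPM to between 27.9 and 57.1 CPM. The part of these markers' cells in the changes of members was not tested. In bulk RNA, a change in the number of cells of a type and a change in RNA per cell cannot be told apart.

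From 24 h on, most tested members were called changed in each medium, at shares near those of all genes. With TMM scaling, more members fell than rose at every time. A change was called at an adjusted p under 0.05 in edgeR's quasi-likelihood test, with Benjamini-Hochberg adjustment over all 14288 genes tested. At 12 h in 2i/LIF, 7 members were higher and 27 lower than at 0 h, where 21.0% and 23.7% of all genes were (44.7% together). By 24 h, 14 were higher and 36 lower (all genes 29.2% and 29.6%, together 58.8%). The 40 h libraries had 23 higher and 36 lower (all genes 34.1% and 34.7%, together 68.8%), so the 75.6% of tested members called there was near the share of all genes. In serum-grown cells, 11 rose and 31 fell at 12 h (all genes 25.3% and 25.9%, together 51.2%), 18 rose and 31 fell at 24 h (all genes 32.4% and 32%, together 64.4%), and 22 rose and 32 fell at 40 h (all genes 35.3% in each direction, together 70.5%). Scaled by library size alone, the last of these counts became 29 higher and 29 lower, while falls still outnumbered rises in the other 5 comparisons with 0 h. The median log2 change of the tested members at 40 h was -0.195 in 2i/LIF, beside 0.00518 for all genes, and -0.0196 in serum-grown cells, beside -0.00324. Comparisons at different times share their 0 h libraries.

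Nearly all large rises were at low levels. The tested members were split at their median level over all libraries, 26.3 CPM. At 40 h in 2i/LIF, 10 of the 39 more abundant members were higher and 25 lower, with 0 rises of at least 2-fold, whereas 13 of the 39 less abundant ones were higher and 11 lower, with 10 such rises. The same split in serum-grown cells gave 9 higher and 23 lower above the median, with 1 rise of at least 2-fold, and 13 higher and 9 lower below it, with 10. Falls of at least 2-fold numbered 4 above and 6 below the median in 2i/LIF, and 4 and 5 in serum-grown cells. Median absolute log2 changes were also larger below it, 0.68 against 0.435 in 2i/LIF and 0.737 against 0.323 in serum-grown cells. All genes were not split by level, so whether this is particular to members was not tested. In all, 10 members rose and 10 fell at least 2-fold in 2i/LIF at 40 h, where all genes gave 15.5% and 13.9%, and 11 rose and 9 fell as far in serum-grown cells, where all genes gave 16.8% and 12.7%.

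**Figure D1:**
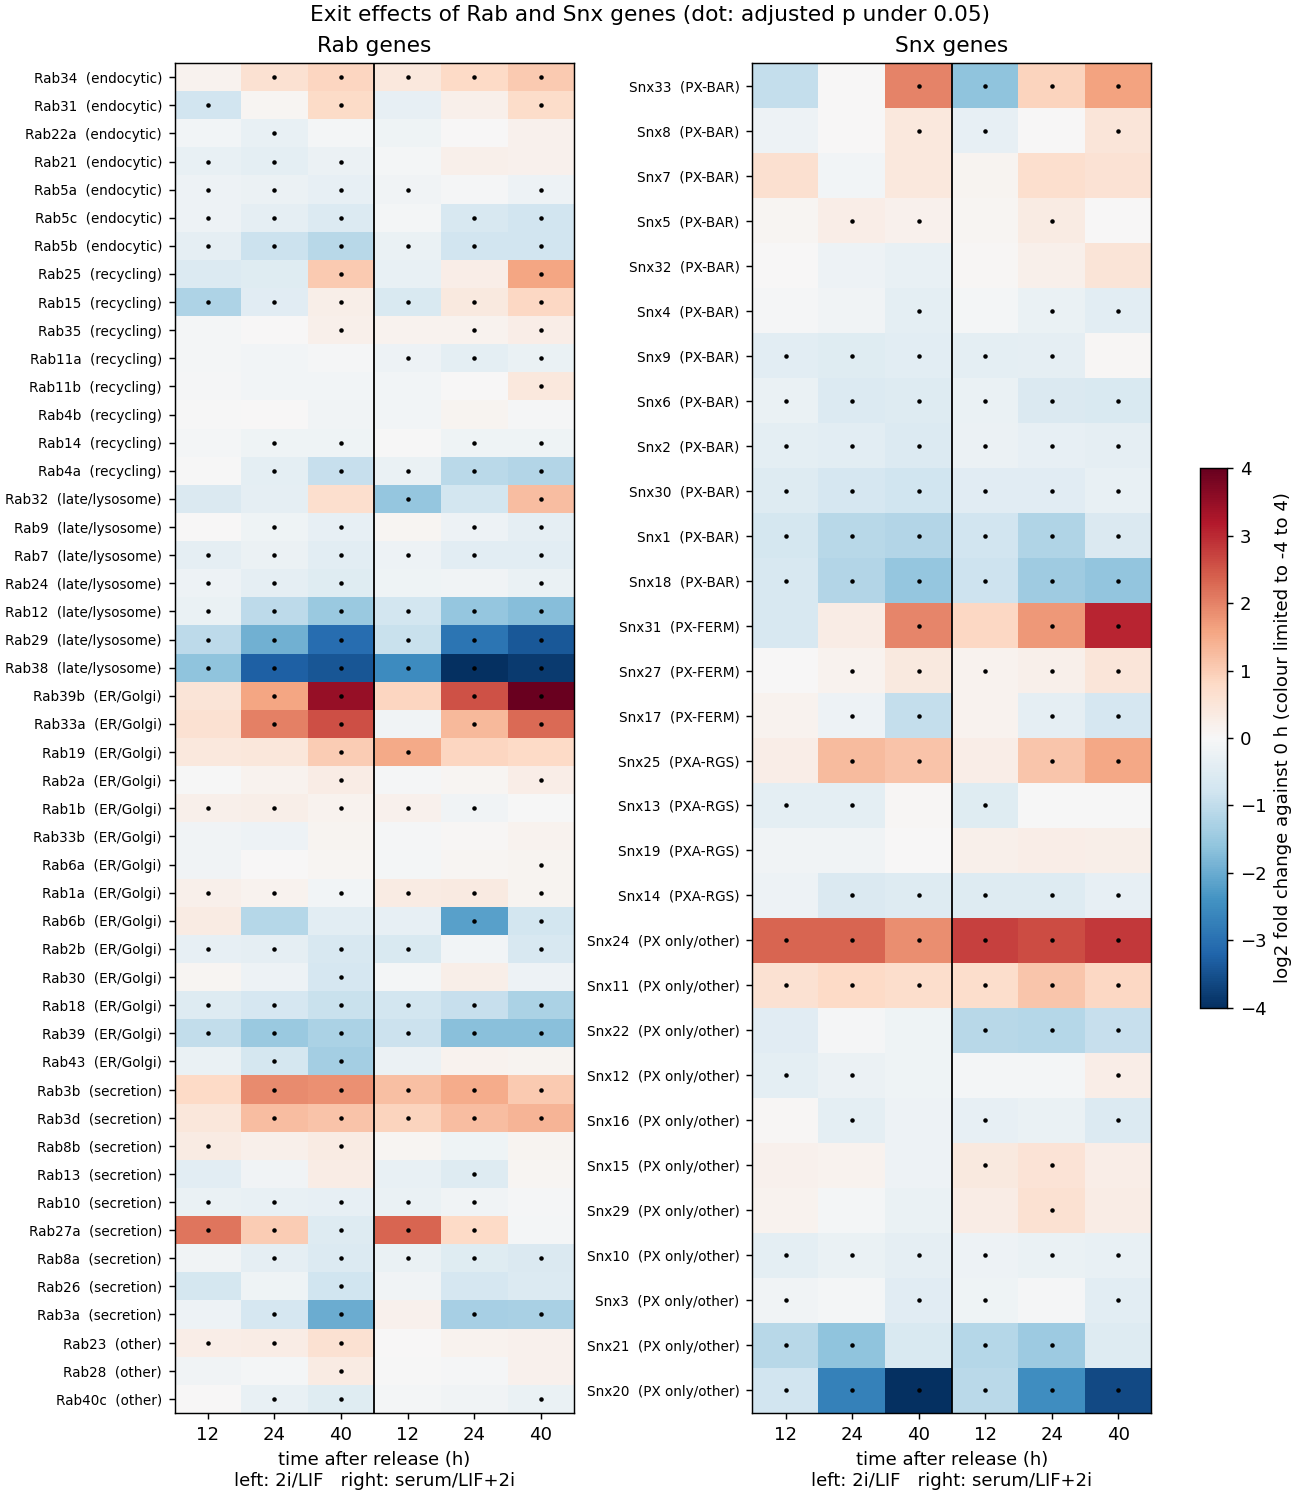
Log2 fold change against 0 h of each tested member (rows, grouped by role) at 12, 24 and 40 h in each medium (columns), with called changes marked. Rab38, Rab29 and Snx20 are the darkest falls, and Rab39b, Rab33a, Snx24 and Snx31 are among the stronger rises at 40 h, in both media.

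At 40 h more members were called in the same direction in both media than in 1 medium alone, as over all genes. Each medium was measured against its own 0 h libraries. In both media, 17 members (21.8%) were called higher (all genes 27.0%) and 28 (35.9%) lower (all genes 27.5%). Another 13 (16.7%) were called in 2i/LIF alone (all genes 12.2%) and 8 (10.3%) in serum-grown cells alone (all genes 13.9%). That split does not by itself show a difference between media. In neither medium were 11 (14.1%) called (all genes 17.3%). One member, Rab1a, which acts between the endoplasmic reticulum and the Golgi, was called in opposite directions, by -0.11 ± 0.04 in 2i/LIF and 0.11 ± 0.04 in serum-grown cells (log2, SE), against 2.16% of all genes. Its call ended in 2i/LIF without replicate 1 at 0 h (-0.10) or replicate 2 at 40 h (-0.03), and in serum-grown cells without replicate 2 at 0 h (0.09) or replicate 1 at 40 h (0.08).

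Most Rabs of late endosomes, lysosomes and lysosome-related organelles fell. Of the 7 tested, 6 were called lower and 0 higher at 40 h in 2i/LIF (all genes 34.7% and 34.1%). Serum-grown cells had 6 lower and 1 higher (all genes 35.3% each). The eighth, Rab36, was too low to test and is given with Rab20. Rab38, which delivers cargo to melanosomes and other lysosome-related organelles (chromosome 7, 88430273 to 88491572, GRCm38), stood at 35.0 and 29.3 CPM in the 2 libraries at 0 h in 2i/LIF, 9.73 and 11.4 at 12 h, 3.33 and 3.34 at 24 h, and 3.13 and 2.85 at 40 h. In serum-grown cells it began at 20.4 and 18.8 CPM and fell to 2.97 and 3.73 by 12 h, 0.664 and 1.12 by 24 h, and 1.81 and 0.871 by 40 h. Every later library lay below both 0 h libraries of its medium. The log2 change at 40 h was -3.41 ± 0.19 in 2i/LIF (edgeR adjusted p = 4.5e-34), and the change in serum-grown cells was -3.83 ± 0.22 (edgeR adjusted p = 1.5e-32). Rab29, a relative of Rab38 known as a partner of the kinase LRRK2 (chromosome 1, 131867210 to 131872887), fell from 17.1 and 17.8 CPM to 8.09 and 8.82, then 4.58 and 4.56, then 1.75 and 2.45 in 2i/LIF. Among serum-grown cells it went from 18.1 and 16.7 CPM to 10.5 and 8.30, 1.77 and 2.75, and 1.90 and 1.35. Its groups at 0 h and 40 h did not overlap in either medium, and the log2 changes were -3.05 ± 0.23 (edgeR adjusted p = 1.4e-23) and -3.40 ± 0.22 (edgeR adjusted p = 6.2e-29).

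Rab12, which sends the transferrin receptor to lysosomes, had smaller changes than Rab38 and Rab29 at 40 h. Its levels in 2i/LIF were 40.5 and 44.8 CPM at 0 h, 37.3 and 33.6 at 12 h, 20.1 and 21.7 at 24 h, and 15.5 and 14.7 at 40 h, a log2 change of -1.50 ± 0.12 at 40 h (edgeR adjusted p = 2.1e-23), and in serum-grown cells it went from 59.9 and 58.6 CPM to 34.3 and 36.7, 20.8 and 19.9, and 19.1 and 17.1, a change of -1.70 ± 0.09 (edgeR adjusted p = 2.5e-34). The general late endosome Rab, Rab7, changed by -0.43 ± 0.07 and -0.41 ± 0.07 on the log2 scale in the 2 media, and Rab9, which returns mannose 6-phosphate receptors to the Golgi, by -0.34 ± 0.07 and -0.35 ± 0.07. Rab24, linked to autophagy, changed by -0.47 ± 0.09 and -0.27 ± 0.09, and the second call ended without replicate 2 of serum-grown cells at 40 h (-0.17). Rab32, the close relative of Rab38 and Rab29, took the other course from low levels: it was at 1.32 and 1.17 CPM at 0 h in serum-grown cells, 0 and 0.745 at 12 h, 0.885 and 0.611 at 24 h, and 3.02 and 2.9 at 40 h. Its log2 change at 40 h was 1.24 ± 0.42 in serum-grown cells (edgeR adjusted p = 0.0060), a call that DESeq2 did not make (1.27, DESeq2 adjusted p = 0.064), and 0.68 ± 0.51 in 2i/LIF, which was not called (edgeR adjusted p = 0.23).

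**Figure D2:**
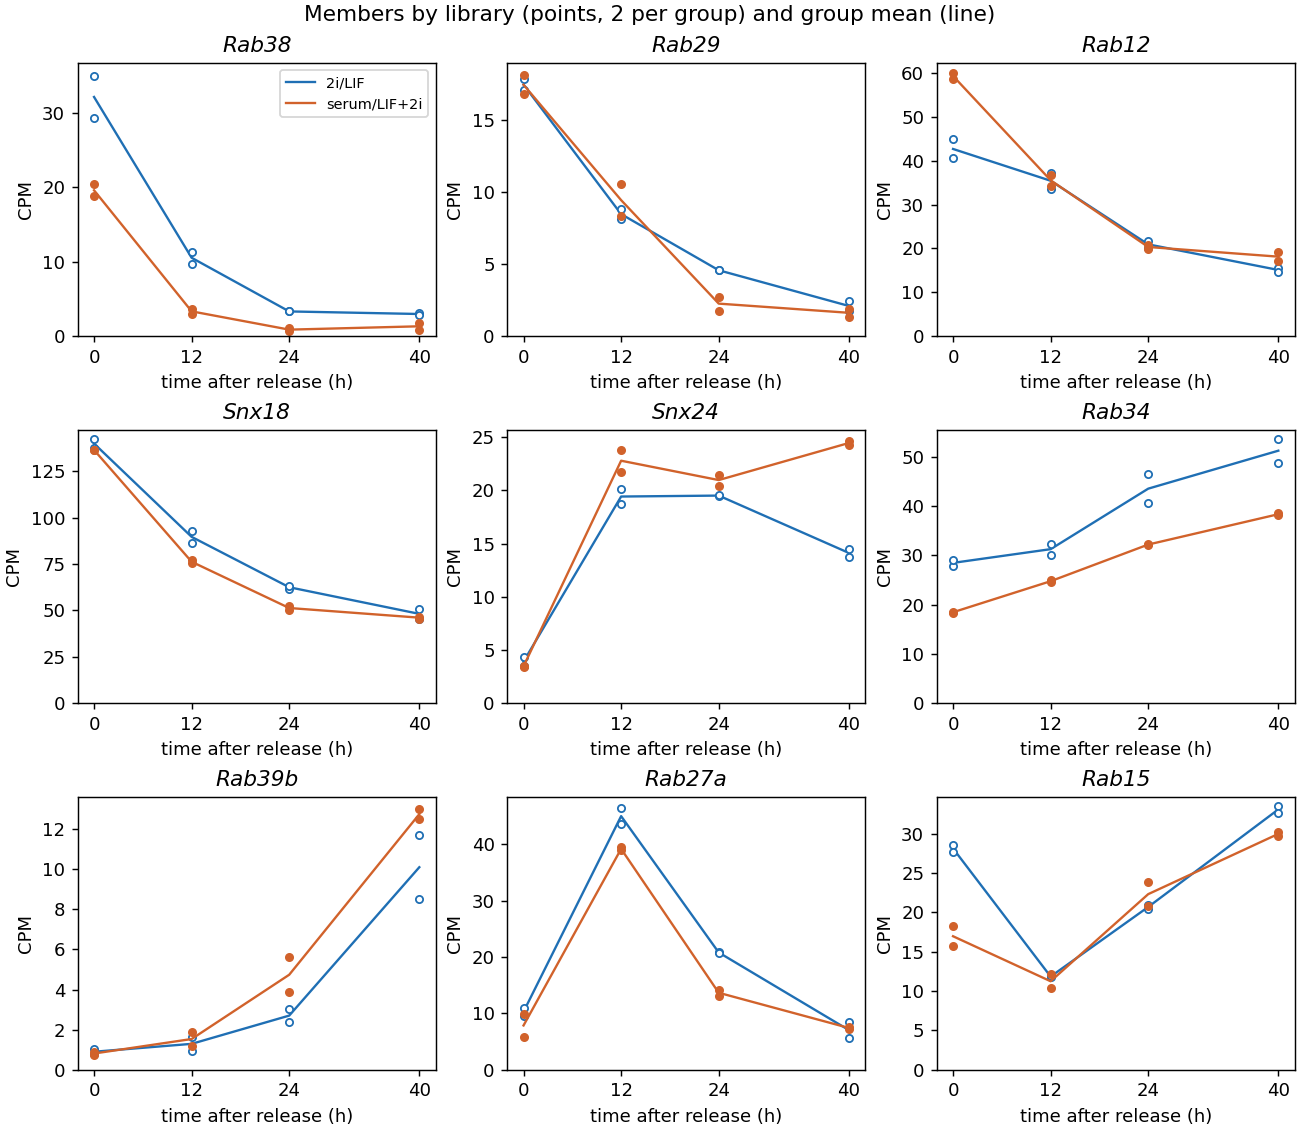
CPM of selected members against hours after release (points, libraries; lines, means of 2), with the 2 media in different colours. Rab38 and Rab29 fall to under 4 CPM, Rab27a peaks at 12 h between 38.9 and 46.5 CPM, and Rab39b climbs from at most 1.03 CPM to at least 8.52 CPM.

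Among endocytic entry and early endosome Rabs, calls at 40 h went in both directions. Of 7 tested, 2 were called higher and 4 lower at 40 h in 2i/LIF (all genes 34.1% and 34.7%). Serum-grown cells had 2 higher and 3 lower (all genes 35.3% each). All 3 Rab5 genes, the master regulators of early endosome fusion, were called lower in both media. Rab5b fell from 72.7 and 68.0 CPM at 0 h to 32.6 and 31.9 at 40 h in 2i/LIF and from 58.8 and 55.4 to 32.7 and 34.6 in serum-grown cells. The groups did not overlap, and the log2 changes were -1.12 ± 0.09 (edgeR adjusted p = 5.0e-23) and -0.76 ± 0.08 (edgeR adjusted p = 8.7e-15). Rab5c, the most abundant Rab5 per length at a mean of 82.7 RPKM, changed by -0.54 ± 0.06 and -0.78 ± 0.05, and Rab5a by -0.33 ± 0.07 and -0.20 ± 0.06 on the log2 scale. The Rab5a call in serum-grown cells ended without replicate 1 at 0 h or replicate 2 at 40 h (-0.14 in each case).

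Rab34 and Rab31 were the tested early endosome members that were called higher. Rab34, which is linked to macropinocytosis, lysosome positioning and ciliogenesis, climbed from 27.9 and 29 CPM to 30.1 and 32.4, 46.5 and 40.6, and 53.7 and 48.8 in 2i/LIF, and from 18.5 and 18.4 CPM to 25 and 24.5, 32.1 and 32.3, and 38.1 and 38.6 in serum-grown cells. Its log2 rises at 40 h were 0.85 ± 0.10 (edgeR adjusted p = 1.4e-13) and 1.06 ± 0.11 (edgeR adjusted p = 1.2e-16). Rab31, a Rab5 relative also called Rab22b, dipped first in 2i/LIF, from 15.7 and 12.3 CPM to 8.91 and 7.35 at 12 h, and reached 22.9 and 24.1 CPM at 40 h, a log2 rise of 0.76 ± 0.14 against 0 h. In serum-grown cells it rose by 0.74 ± 0.12. Rab22a, a regulator of sorting from early to recycling endosomes, was called in neither medium at 40 h, with log2 values of -0.08 ± 0.13 and 0.18 ± 0.12.

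Recycling endosome Rabs moved in both directions. Of 8 tested, 3 were higher and 2 lower at 40 h in 2i/LIF (all genes 34.1% and 34.7%). In serum-grown cells 4 were higher and 3 lower (all genes 35.3% each). Rab4a, which drives rapid return from early endosomes, fell from 35.3 and 40.4 CPM to 20.7 and 19.0 in 2i/LIF and from 53.2 and 50.7 to 23.7 and 22.7 in serum-grown cells, with log2 changes of -0.93 ± 0.11 and -1.16 ± 0.09. Its paralog Rab4b was called in neither medium at 40 h (-0.14 ± 0.09 and -0.04 ± 0.09). Rab25, an epithelial member of the Rab11 branch, stayed between 1.60 and 4.31 CPM up to 24 h in all libraries and then stood at 8.02 and 8.56 CPM at 40 h in 2i/LIF and at 7.24 and 6.29 CPM in serum-grown ones. Its 40 h libraries lay above every earlier one, and its log2 rises were 1.03 ± 0.25 (edgeR adjusted p = 0.00013) and 1.57 ± 0.27 (edgeR adjusted p = 2.1e-07).

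Rab15, an endosomal Rab enriched in neurons, fell before it rose. It went from 28.6 and 27.6 CPM at 0 h to 11.8 and 11.9 at 12 h, 20.4 and 21.0 at 24 h, and 33.6 and 32.6 at 40 h with 2i/LIF. Among serum-grown cells it went from 18.2 and 15.7 CPM to 12.2 and 10.3, 20.8 and 23.8, and 30.2 and 29.7. At 12 h the log2 change was -1.25 ± 0.14 in 2i/LIF and -0.61 ± 0.15 in serum-grown cells. At 40 h it was 0.82 ± 0.12 in serum-grown cells, and 0.24 ± 0.11 in 2i/LIF, a call that ended without any single one of the 4 libraries compared (0.21 to 0.26). Rab11a, the canonical recycling Rab, changed by -0.28 ± 0.07 in serum-grown cells and was not called in 2i/LIF (-0.06 ± 0.08), and Rab35, which returns cadherins and other cargo to the surface, rose by 0.19 ± 0.07 in 2i/LIF, a call that ended without replicate 2 at 0 h (0.12), and by 0.27 ± 0.06 in serum-grown cells.

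Of the 14 tested Rabs of the endoplasmic reticulum and Golgi, 5 were higher and 6 lower at 40 h in 2i/LIF (all genes 34.1% and 34.7%). In serum-grown cells 5 were higher and 4 lower (all genes 35.3% each), shares near those of all genes. The highest of these Rabs per length was Rab1a, at a mean of 116 RPKM, and its movements were small. Rab18, found on the endoplasmic reticulum and lipid droplets, fell from 142 and 152 CPM at 0 h to 104 and 102, 91.8 and 91.0, and 79.7 and 78.8 in 2i/LIF, and from 158 and 151 CPM to 98.1 and 89.7, 83.3 and 78.1, and 64.2 and 64.5 in serum-grown cells. Every step down was called in both media, and the 40 h changes were -0.89 ± 0.06 (edgeR adjusted p = 6.3e-28) and -1.26 ± 0.06 (edgeR adjusted p = 1.4e-42). Rab33a, a Golgi Rab tied to axonal vesicles, rose from 1.21 and 0.911 CPM at 0 h to 6.01 and 6.66 at 40 h in 2i/LIF and from 0.294 and 1.03 to 3.53 and 2.9 in serum-grown cells, by 2.57 ± 0.38 (edgeR adjusted p = 1.9e-09) and 2.26 ± 0.45 (edgeR adjusted p = 4.7e-06) on the log2 scale, whereas its paralog Rab33b was called in neither medium (0.11 ± 0.20 and 0.14 ± 0.18).

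The secretory Rabs held a strongly transient member. Rab27a, which docks lysosome-related organelles and exosome-bearing endosomes at the plasma membrane (chromosome 9, 73044810 to 73097623), was at 11 and 9.57 CPM at 0 h in 2i/LIF, 46.5 and 43.6 at 12 h, 21.0 and 20.7 at 24 h, and 8.52 and 5.57 at 40 h. In serum-grown cells it was at 5.88 and 9.84 CPM at 0 h, then 38.9 and 39.5, 13.2 and 14.2, and 7.58 and 7.26. The 12 h libraries stood above all others in both media. The log2 rise at 12 h was 2.13 ± 0.14 in 2i/LIF (edgeR adjusted p = 9.4e-29) and 2.32 ± 0.14 in serum-grown cells (edgeR adjusted p = 2.9e-30). At 40 h it was -0.53 ± 0.20 and -0.08 ± 0.19, the first called but not without replicate 1 at 0 h (-0.43) or replicate 2 at 40 h (-0.27), the second not called. Rab8a, which carries cargo from the Golgi and recycling endosomes to the surface and cilium, changed by -0.55 ± 0.08 and -0.59 ± 0.07. Rab10, which delivers glucose transporters to the surface and is the most abundant secretory member per length (33.3 RPKM), was called lower in 2i/LIF at 40 h (-0.33 ± 0.06) and not called in serum-grown cells (-0.06 ± 0.05). In all, 3 of 9 secretory Rabs were higher and 5 lower at 40 h in 2i/LIF (all genes 34.1% and 34.7%). Serum-grown cells had 2 higher and 2 lower (all genes 35.3% each).

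The members with a PX and a BAR domain, the membrane-bending sorting nexins, fell more often than they rose: 7 of 12 were lower and 3 higher at 40 h in 2i/LIF (all genes 34.7% and 34.1%), and 6 lower and 2 higher in serum-grown cells (all genes 35.3% each). Snx18, which acts with dynamin in endocytosis and in autophagosome formation (chromosome 13, 113592179 to 113618564), went from 138 and 143 CPM to 86.5 and 92.9, 61.8 and 63.2, and 50.8 and 45.4 in 2i/LIF, and from 136 and 137 to 75.6 and 77.0, 52.5 and 50, and 45.6 and 46.5 in serum-grown cells. The groups did not overlap, and the log2 changes of -1.54 ± 0.07 (edgeR adjusted p = 1.0e-43) and -1.57 ± 0.06 (edgeR adjusted p = 1.4e-47) carried the smallest adjusted p of any member in each medium. Its relative Snx33 rose instead, from 0.345 and 2.43 CPM to 5.76 and 5.71 in 2i/LIF and from 2.35 and 2.79 to 7.07 and 8.61 in serum-grown cells, by 1.97 ± 0.37 and 1.60 ± 0.28 on the log2 scale. The third of this kind, Snx9, was called lower in 2i/LIF (-0.43 ± 0.12) and not called in serum-grown cells (0.05 ± 0.11).

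The sorting nexins that pair up in retromer-linked coats did not move as a block. Snx1 and Snx2 form one side of the dimer and Snx5 and Snx6 the other. Snx1 fell from 119 and 121 CPM at 0 h to 51.7 and 55.2 at 40 h in 2i/LIF (-1.17 ± 0.07) and from 86.5 and 91.4 to 58.5 and 60.2 in serum-grown cells (-0.58 ± 0.07). Snx2 changed by -0.56 ± 0.07 and -0.36 ± 0.06, and Snx6 by -0.51 ± 0.07 and -0.61 ± 0.06. Snx5, the most abundant member per length at a mean of 221 RPKM, stood between 506 and 579 CPM at 0 h, at 616 and 616 CPM at 24 h in 2i/LIF and at 706 and 682 CPM at 24 h in serum-grown cells. It was then called higher at 40 h in 2i/LIF (0.17 ± 0.04) and not called in serum-grown cells (0.03 ± 0.04). Snx30 changed by -0.80 ± 0.09 in 2i/LIF and -0.30 ± 0.09 in serum-grown cells, the latter no longer called without replicate 2 at 0 h (-0.23), and Snx8 rose by 0.43 ± 0.10 and 0.49 ± 0.09.

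The 3 sorting nexins with a FERM domain, which recognises sorting signals in receptor tails, split by gene in the same way in both media. Snx17, the adaptor of retriever for integrins and LDL receptor relatives, stayed at 104 and 94.5 CPM at 0 h and 109 and 108 after 12 h in 2i/LIF, then went to 87.7 and 84.0 and to 48.2 and 53.8 CPM. Among serum-grown cells it was at 91.2 and 93.3 CPM at 0 h, 105 and 98.5 at 12 h, 72.6 and 71.8 at 24 h, and 52.4 and 63.5 at 40 h. The log2 changes at 40 h were -0.96 ± 0.07 (edgeR adjusted p = 7.0e-23) and -0.68 ± 0.07 (edgeR adjusted p = 1.6e-16). Snx27, the adaptor that links PDZ-binding cargo to retromer, rose from 133 and 131 CPM to 170 and 175 in 2i/LIF and from 120 and 121 to 163 and 170 in serum-grown cells, by 0.38 ± 0.05 and 0.47 ± 0.05 on the log2 scale. Snx31, a relative of Snx17 best known from urothelium, rose from 8 counts in total at 0 h to 39 at 40 h in 2i/LIF and from 4 to 56 in serum-grown cells. The ratios were 3.94 (95% exact interval 1.81 to 9.75) and 8.69 (3.21 to 33), which cover counting error only.

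Among the remaining sorting nexins, Snx24 and Snx20 moved furthest. Snx24, a small PX protein, was already up at 12 h: it went from 4.31 and 3.49 CPM to 20.1 and 18.7, 19.4 and 19.6, and 14.5 and 13.7 in 2i/LIF, and from 3.38 and 3.52 to 21.8 and 23.8, 20.5 and 21.5, and 24.6 and 24.3 in serum-grown cells. All later libraries lay above both 0 h libraries, and the 40 h rises were 1.86 ± 0.21 (edgeR adjusted p = 2.8e-14) and 2.82 ± 0.18 (edgeR adjusted p = 2.7e-30). Snx20, which binds the adhesion receptor PSGL-1 in leukocytes, had 83 counts over the 2 libraries at 0 h in 2i/LIF and 3 at 40 h, a ratio of 34.3-fold lower (95% exact interval 11.3 to 170). In serum-grown cells it had 33 and 4 counts, 13.3-fold lower (4.73 to 51.7). Snx11, linked to endosomal trafficking of ion channels, rose from 26.0 and 28.9 CPM to 46.3 and 42.7 in 2i/LIF and from 23.8 and 27.0 to 45.8 and 44.0 in serum-grown cells, by 0.69 ± 0.10 and 0.82 ± 0.09. Snx3, the retromer partner for Wntless and the most abundant of these per length (126 RPKM), changed by -0.46 ± 0.05 and -0.41 ± 0.05. Of 11 such members, 2 were higher and 3 lower at 40 h in 2i/LIF (all genes 34.1% and 34.7%). In serum-grown cells 3 were higher and 5 lower (all genes 35.3% each).

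Of the 4 members with PXA and RGS domains, which tether the endoplasmic reticulum to other organelles or regulate receptor signalling, Snx25 rose and Snx14 fell in both media. Snx25 went from 5.17 and 3.80 CPM to 9.89 and 9.51 in 2i/LIF and from 4.70 and 5.29 to 15.3 and 14.1 in serum-grown cells, by 1.12 ± 0.23 and 1.56 ± 0.19. Snx14, which sits at contacts with lipid droplets, changed by -0.53 ± 0.10 and -0.32 ± 0.09. Snx13 and Snx19 were called in neither medium at 40 h. The 3 Rabs with other roles included Rab23, a negative regulator of Hedgehog signalling, which rose in 2i/LIF from 38.6 and 32.1 CPM to 58.4 and 48.5 (0.61 ± 0.10) and was not called in serum-grown cells, where it began at 52.2 and 45.7 CPM and ended at 53.9 and 55.6 (0.16 ± 0.08). Rab20, of the early endosome group, and Rab36, of the late endosome group, were too low to test and had 5 and 0 counts over both 2i/LIF libraries at 0 h and 22 and 14 at 40 h. The ratio for Rab20 was 3.55 (95% exact interval 1.31 to 12), and Rab36 was at least 1.89-fold higher at 40 h, against a floor of 3 counts per library. Serum-grown cells had 7 and 2 counts at 0 h and 17 and 30 at 40 h, ratios of 1.51 (0.594 to 4.3) and 9.31 (2.36 to 80.4).

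Further members are given here, and others below with their paralogs or with the media. Rab14, a recycling and Golgi Rab, changed by -0.18 ± 0.06 and -0.16 ± 0.06 at 40 h, the second call ending without serum-grown replicate 1 at 0 h (-0.15) or replicate 2 at 40 h (-0.08) and the first without 2i/LIF replicate 1 at 0 h (-0.14). Rab40c, a Rab that recruits a ubiquitin ligase, changed by -0.48 ± 0.10 and -0.27 ± 0.09, the second not called by DESeq2 (-0.25). Snx4, which returns the transferrin receptor and Atg9 from endosomes, changed by -0.39 ± 0.07 and -0.43 ± 0.06, and Snx10, a partner of the vacuolar ATPase, by -0.36 ± 0.08 and -0.29 ± 0.08. Snx16 was called in serum-grown cells (-0.55 ± 0.13) and not in 2i/LIF (-0.19 ± 0.14). Rab1b, the partner of Rab1a, was at 0.14 ± 0.06 in 2i/LIF, a call that ended without replicate 2 at 0 h (0.11) or replicate 1 at 40 h (0.08), and was not called in serum-grown cells (-0.02 ± 0.06). Rab13, Snx7, Snx15, Snx21 and Snx32 were called in neither medium at 40 h, but Snx21 dipped at 24 h, from 4.65 and 4.71 CPM at 0 h to 2.08 and 0.912 in 2i/LIF and from 6.32 and 3.97 to 1.88 and 1.83 in serum-grown cells (-1.61 ± 0.38 and -1.46 ± 0.32).

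Some close paralogs moved in opposite directions. Among the 14 pairs of tested members whose symbols differ only in the last letter, 4 were called in opposite directions at 40 h in both media: Rab39 with Rab39b, Rab3a with Rab3b, Rab3a with Rab3d, and Rab2a with Rab2b. Rab3a is in 2 of these pairs. Over all genes, 27.0% were called higher and 27.5% lower in both media, so unrelated genes also often move apart. Whether paralogs do so more often was not tested. Rab39 and Rab39b act in autophagy and in Golgi to surface traffic, and Rab39b is known for its role in neurons. Rab39 (chromosome 9, 53684110 to 53706232) fell from 11.7 and 6.84 CPM to 3.51 and 4.08 in 2i/LIF and from 4.26 and 5.87 to 1.81 and 1.35 in serum-grown cells, by -1.27 ± 0.25 and -1.66 ± 0.31 on the log2 scale. Rab39b (chromosome X, 75572045 to 75578231) rose from 1.03 and 0.759 CPM to 1.64 and 0.936 at 12 h, 2.36 and 3.04 at 24 h, and 8.52 and 11.7 at 40 h with 2i/LIF. Among serum-grown cells it rose from 0.735 and 0.881 CPM to 1.89 and 1.17, 3.87 and 5.60, and 13.0 and 12.5. Its 24 h and 40 h libraries lay above all earlier ones, and its rises at 40 h, 3.48 ± 0.34 (edgeR adjusted p = 8.1e-17) and 3.96 ± 0.31 (edgeR adjusted p = 7.2e-23), were the largest of any tested member. Per length, Rab39b made up 8.09% of the pair's RPKM at the start and 70.0% at 40 h in 2i/LIF, against 12.5% and 87.7% for serum-grown cells. The summed level of the neural markers moved the same way (27.9 to 57.1 CPM at 40 h), and its part in the rise of Rab39b was not tested.

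The Rab3 genes, regulators of secretory vesicle release, also moved apart. Rab3a was at 8.96 and 6.84 CPM at 0 h and 1.75 and 2.17 at 40 h in 2i/LIF, and at 5.44 and 6.46 and then 2.15 and 2.71 in serum-grown cells, a change of -2.0 ± 0.29 and -1.29 ± 0.27 on the log2 scale. Rab3d went from 6.72 and 4.41 CPM to 11.9 and 12.4 and from 3.82 and 5.29 to 12.6 and 10.7, by 1.14 ± 0.21 and 1.36 ± 0.20. Rab3b rose by 1.82 ± 0.43 and 1.05 ± 0.35, from at most 1.62 CPM at 0 h to between 2.99 and 3.88 at 40 h. Per length, Rab3a fell from 75.9% of the Rab3 total to 24.5% in 2i/LIF and from 71.2% to 29.4% in serum-grown cells, while Rab3d went from 19.9% to 56.8% and from 20.3% to 52.8%. The Rab3 sum was 8.12 and 6.22 RPKM at 0 h and 5.45 and 5.60 RPKM at 40 h in 2i/LIF, and 5.22 and 6.31 and then 5.72 and 5.69 RPKM in serum-grown cells. Rab2a and Rab2b, which act between the Golgi and the endoplasmic reticulum and on late endosomes, differed less, with 0.31 ± 0.07 and 0.27 ± 0.07 for Rab2a and -0.66 ± 0.12 and -0.64 ± 0.11 for Rab2b.

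**Figure D3:**
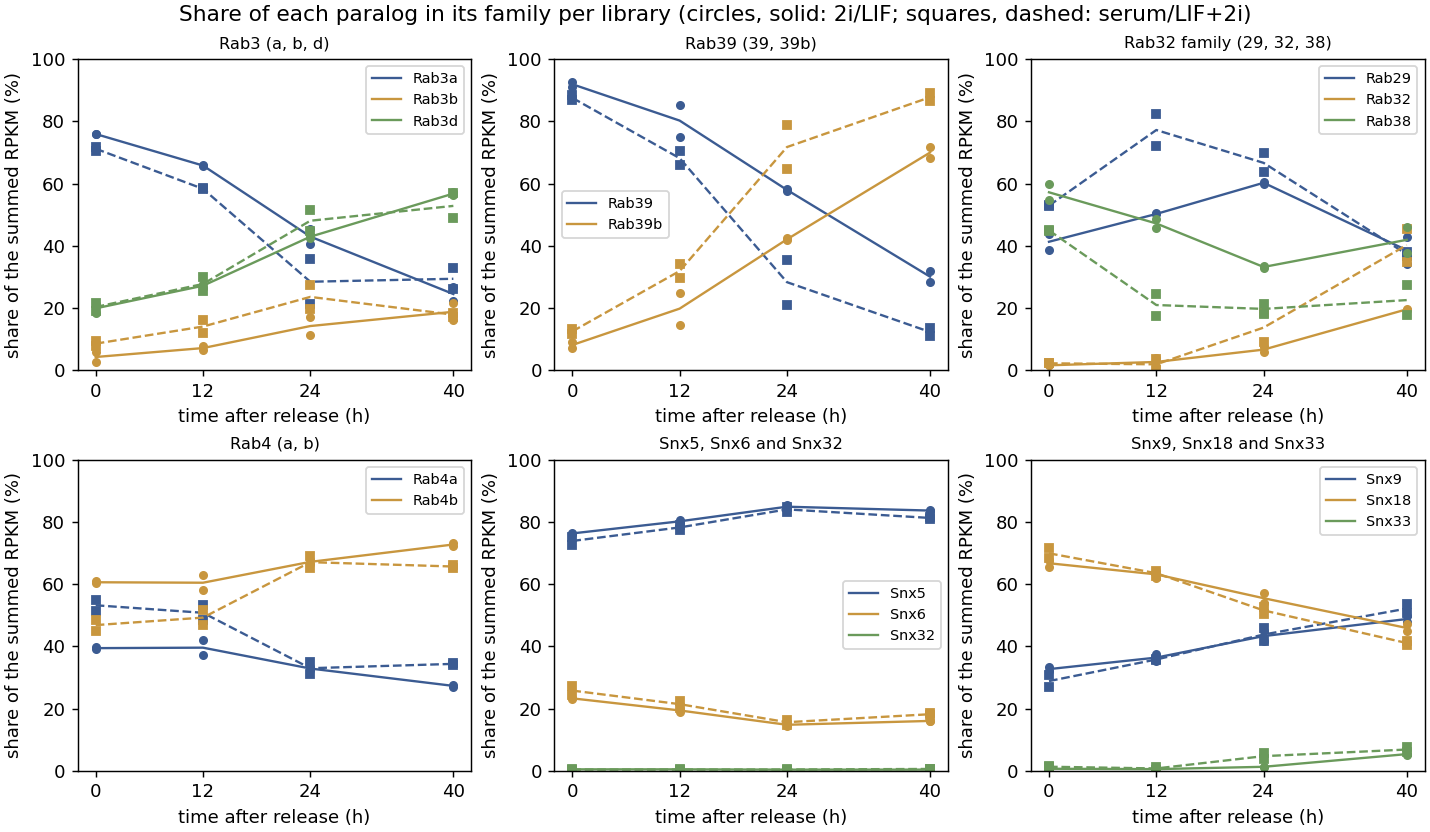
Share of each paralog in its family's summed RPKM (percent, vertical axis) against hours after release, with points for libraries and lines for means, in both media. Rab39b goes from 8.09% and 12.5% of the Rab39 pair to 70.0% and 87.7%, and Rab3d overtakes Rab3a.

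The 250 bases upstream of the RefSeq transcript start (GRCm38.p6) of Rab39 with Rab39b and of Rab3a with Rab3d are shown because these closely related genes moved in opposite directions. CpG dinucleotides are in capitals.
Rab39 (chr9:53706233-53706482, minus strand): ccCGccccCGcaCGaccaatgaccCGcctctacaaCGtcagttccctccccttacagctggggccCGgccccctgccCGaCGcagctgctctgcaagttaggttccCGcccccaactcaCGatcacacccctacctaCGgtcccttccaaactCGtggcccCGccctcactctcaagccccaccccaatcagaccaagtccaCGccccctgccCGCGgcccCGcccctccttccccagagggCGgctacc
Rab39b (chrX:75578232-75578481, minus strand): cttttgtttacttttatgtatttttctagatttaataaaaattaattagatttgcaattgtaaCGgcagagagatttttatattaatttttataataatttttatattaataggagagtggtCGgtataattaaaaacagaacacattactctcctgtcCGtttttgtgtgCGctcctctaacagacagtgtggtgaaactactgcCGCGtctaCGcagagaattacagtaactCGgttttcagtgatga
Rab3a, first of 2 starts (chr8:70754453-70754702, plus strand): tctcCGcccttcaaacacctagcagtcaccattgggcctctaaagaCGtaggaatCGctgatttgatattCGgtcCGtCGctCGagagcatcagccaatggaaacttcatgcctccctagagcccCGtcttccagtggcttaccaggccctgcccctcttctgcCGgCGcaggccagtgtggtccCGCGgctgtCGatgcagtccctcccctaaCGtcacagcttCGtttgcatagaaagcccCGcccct
Rab3d (chr9:21918184-21918433, minus strand): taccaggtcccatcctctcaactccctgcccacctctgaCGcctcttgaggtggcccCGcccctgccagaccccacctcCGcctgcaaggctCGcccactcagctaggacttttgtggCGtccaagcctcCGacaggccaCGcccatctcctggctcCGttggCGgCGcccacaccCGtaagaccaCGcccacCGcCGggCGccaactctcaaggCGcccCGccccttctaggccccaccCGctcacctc
The Rab39 window held 18 CpG and 68.8% G and C, and the Rab39b window 8 CpG and 31.6%. The Rab3a window held 16 CpG and 58.8%, and the Rab3d window 18 CpG and 69.2%.

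RefSeq's table had a promoter for 64 of the 80 members, 81 in all. Their median window held 62.8% G and C and 18 CpG, where all 32851 promoters gave 52.4% and 6. Searched on both strands, the Sp1 GC box GGGCGG was in 67.9% of the members' windows (all promoters 32.7%), the CCAAT box in 39.5% (33.8%) and the TATA box TATAAA in 4.94% (12.4%), the last in Rab39b, Rab3b, Rab7 and Snx33. The E-box CACGTG of the MiT/TFE and Myc factors was in 9.88% (6.02%), among them Rab27a, Rab5a, Snx18 and Snx5, and the STAT3 pattern TTCNNNGAA in 7.41% (7.02%). The ATF4 core TTGCATCA, the TCF pattern CTTTGAT and the ESRRB pattern TCAAGGTCA had 0 matches in these windows. A match describes the letters only.

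Change was spread over the interval, and its course differed between members. In 2i/LIF, 10 members stepped up and 19 down between 12 and 24 h (all genes 17.4% and 17.7%, together 35.1%), and 15 up and 20 down between 24 and 40 h (all genes 22.2% and 24.5%, together 46.7%). Serum-grown cells had 17 steps up and 22 down in the first of these intervals (all genes 24.2% each, together 48.4%) and 22 up and 13 down in the second (all genes 25.9% and 24.6%, together 50.5%). With counts scaled by library size alone, the later step in 2i/LIF had 16 up and 15 down, and the steps in serum-grown cells had 19 up and 19 down and then 29 up and 8 down. Following the 3 called steps in turn, 8 of 78 members reversed direction in 2i/LIF (all genes 16.5%) and 17 in serum-grown cells (all genes 27.3%). Rab27a turned down in both media after 12 h, and Rab15 turned up in both. Snx1 fell in the first 2 steps in serum-grown cells and rose by 0.62 in the last, whereas its last step in 2i/LIF, -0.07, was not called. Rab6b, a neuronal Golgi Rab, fell from 4.60 and 4.58 CPM at 12 h to 1.33 and 1.22 at 24 h in serum-grown cells and returned to 3.71 and 3.19 at 40 h.

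Before release the media differed in 27 members. Serum-grown cells had 8 of them higher and 19 lower (all genes 14.6% and 18.4%, together 33.0%). Among members with a mean of at least 5 CPM the largest difference was in Snx29, at 11 and 9.42 CPM in 2i/LIF and 5.88 and 5.14 in serum-grown cells, a log2 value of -0.88 ± 0.22 (edgeR adjusted p = 0.00052). Rab15 (-0.73 ± 0.13), Rab38 (-0.71 ± 0.13), Rab34 (-0.63 ± 0.12), Rab43 (-0.62 ± 0.15) and Snx1 (-0.44 ± 0.07) were also lower in serum. Higher in serum were Rab8b (0.57 ± 0.13), a partner of Rab8a at cell junctions, and Rab23 (0.48 ± 0.10), Rab12 (0.47 ± 0.09), Rab4a (0.45 ± 0.10) and Snx6 (0.31 ± 0.06). Rab6b, below the level for naming and chosen after its values were seen, was at 0.345 and 1.82 CPM in 2i/LIF and at 5.88 and 5.73 CPM in serum-grown cells, 2.35 ± 0.40 higher (edgeR adjusted p = 8.1e-07), and it was still 2.01 ± 0.42 higher at 40 h. Rab21 (-0.44), Rab5c (0.15) and Snx5 (0.11) lost their call when 1 library was left out: Rab21 without replicate 2 in 2i/LIF (-0.31), Rab5c without either 2i/LIF replicate (0.14 in each case) or replicate 2 in serum (0.12), and Snx5 without replicate 1 in 2i/LIF (0.09) or in serum (0.05).

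The media differed in 24 members at 12 h (8 higher in serum-grown cells and 16 lower, all genes 14.8% and 15.5%, together 30.3%), in 22 at 24 h (7 and 15, all genes 14.1% and 17.0%, together 31.1%) and in 18 at 40 h (9 and 9, all genes 13.9% and 13.4%, together 27.3%). Leaving out the second 2i/LIF library at 12 h lowered the first count to 13, and leaving out the first 2i/LIF library at 40 h lowered the last to 10. At 40 h the difference was 0.86 ± 0.16 for Rab43, a Golgi Rab, 0.79 ± 0.12 for Snx24, -0.30 ± 0.06 for Rab18 and -0.42 ± 0.08 for Rab34. Rab34 was thus lower in cells from serum at the start and at the end. After 0 h the cells were also in exit media of different base. The parts of maintenance medium and exit medium in these later differences cannot be told apart.

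Exit media differed in base along with the maintenance media, so their parts in the values below cannot be told apart. Whether exit itself differed between the media was tested as the difference between the 2 changes from 0 h. A positive value means the more positive change in serum-grown cells. It was called positive for 1 member and negative for 2 at 12 h (all genes 4.80% and 4.40%, together 9.20%), for 4 and 9 at 24 h (all genes 9.77% and 11%, together 20.8%), and for 13 and 4 at 40 h (all genes 14.8% and 12.8%, together 27.6%). Rab43 had the largest value at 40 h: in 2i/LIF it fell from 18.8 and 19.1 CPM to 14.7 and 16.7, 11.8 and 11.2, and 6.76 and 8.02, while in serum-grown cells it went from 11.6 and 13.1 CPM to 11.6 and 9.37, 13.7 and 13.3, and 14.1 and 12.5. The 40 h changes were -1.36 ± 0.17 and 0.11 ± 0.15, and they differed by 1.48 ± 0.23 (edgeR adjusted p = 5.0e-08). Snx1 (0.59 ± 0.10), Rab15 (0.58 ± 0.16), Snx30 (0.49 ± 0.13) and Snx12 (0.44 ± 0.11) also had the more positive change in serum-grown cells, and Rab18 (-0.37 ± 0.08) the more negative one. These 6 calls held with every alternative computed.

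The other 11 calls at 40 h each ended with at least one alternative, and DESeq2 ended 8 of them (Rab11b, Rab21, Rab23, Rab5b, Rab5c, Snx17, Snx5 and Snx9). Snx24 (0.96 ± 0.32) ended without the first library at 0 h of either medium, at 0.81 for 2i/LIF and 0.93 for serum-grown cells. Rab1a (0.22 ± 0.06) ended without the second 2i/LIF library at 40 h (0.13), and Rab10 (0.27 ± 0.08) without the first serum-grown library at 40 h (0.21). Rab23 (-0.45 ± 0.13) ended without the second 2i/LIF library at 0 h (-0.31), the first at 40 h (-0.30), or the first serum-grown library at 0 h (-0.35). Rab11b (0.53 ± 0.19) ended without the second 2i/LIF library at 0 h (0.50), the first at 40 h (0.39), or the first serum-grown library at 0 h (0.46) or 40 h (0.44). Rab21 (0.41 ± 0.14) ended without the second library at 0 h of 2i/LIF (0.27) or serum-grown cells (0.39), or the first at 40 h of either (both 0.34).

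Rab5b (0.36 ± 0.12) ended without 2i/LIF replicate 1 at 0 h or replicate 2 at 40 h (0.32 and 0.34), or replicate 2 of serum-grown cells at 0 h or 40 h (0.32 each). Rab5c (-0.23 ± 0.08) ended without 2i/LIF replicate 1 at 40 h (-0.17), or serum-grown replicate 2 at 0 h (-0.21) or replicate 1 at 40 h (-0.18). Snx5 (-0.14 ± 0.05) ended without replicate 1 of any of the 4 groups compared (-0.12 to -0.08). Snx9 (0.48 ± 0.16) ended without replicate 2 at 0 h in 2i/LIF (0.40) or serum-grown cells (0.37), or serum-grown replicate 1 at 40 h (0.44). Snx17 (0.28 ± 0.10) ended without 2i/LIF replicate 1 at 0 h (0.22) or 40 h (0.20), or serum-grown replicate 1 at 0 h (0.26) or replicate 2 at 40 h (0.14). Without 2i/LIF replicate 1 at 40 h, 11 members were called in all.

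**Figure D4:**
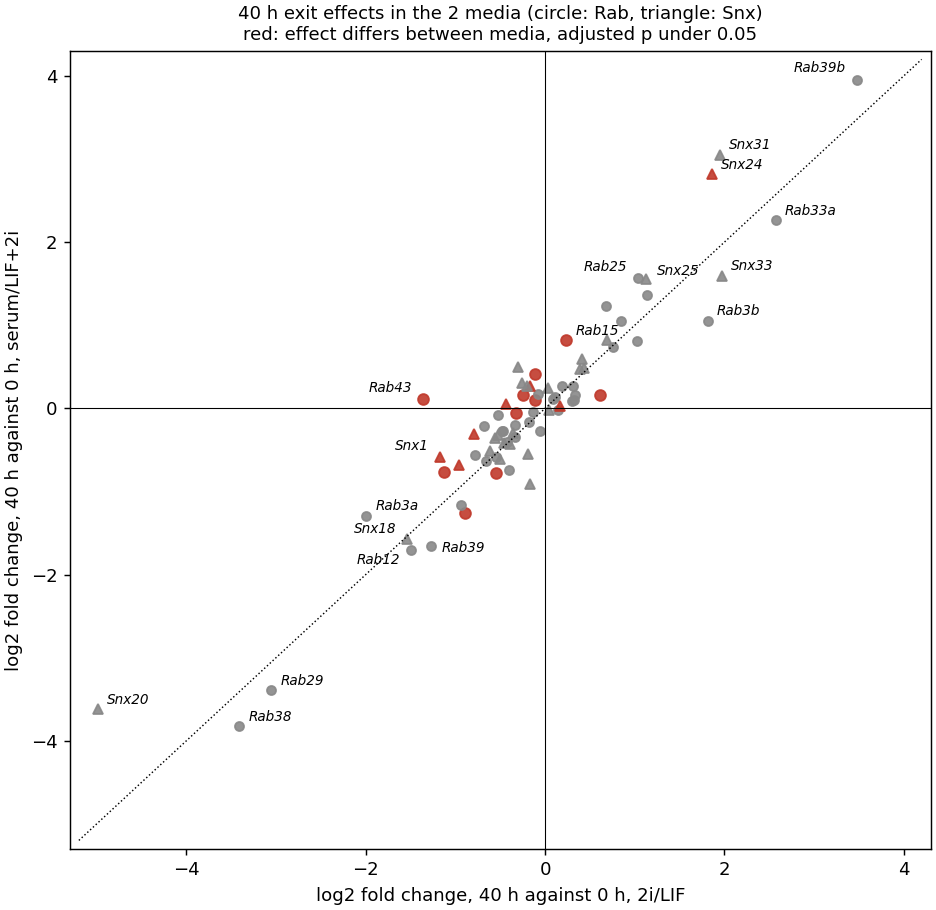
Log2 change at 40 h against 0 h in 2i/LIF (horizontal) and in serum-grown cells (vertical) for each tested member, with the line of equal change dotted and members whose changes differed between media in red. Most members lie near the line, Rab43 falls in 2i/LIF alone, and Snx24 lies above the line.

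**Figure D5:**
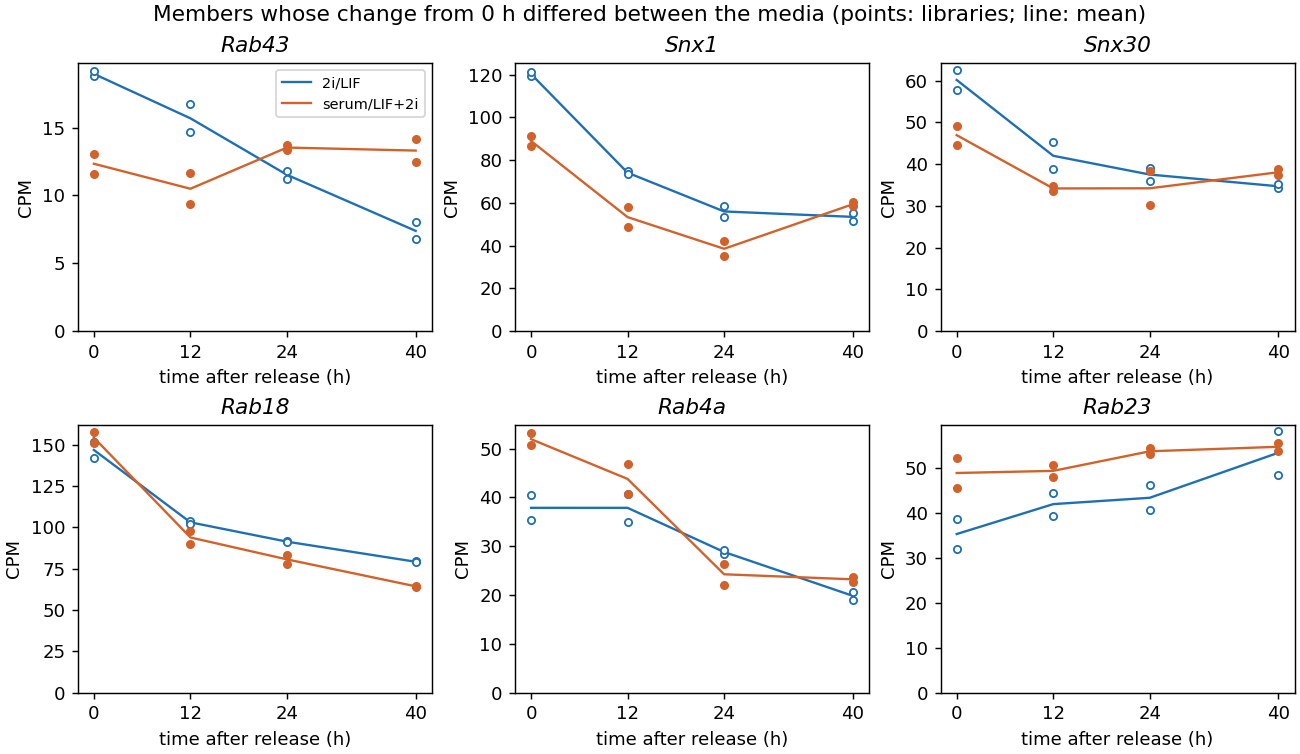
CPM against hours after release for 6 members whose change from 0 h was called different between media at 24 or 40 h (points, libraries; lines, means). Rab43 ends at 6.76 and 8.02 CPM in 2i/LIF and at 14.1 and 12.5 CPM in serum-grown cells, and Snx1 steps up between 24 and 40 h in serum-grown cells (0.62) and stays level in 2i/LIF (-0.07, not called).

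Genes that work with these families were taken from 5 lists, whose counts at 40 h stand beside 34.1% of all genes higher and 34.7% lower in 2i/LIF and 35.3% each in serum-grown cells. Retromer, retriever and WASH are complexes that work with sorting nexins on endosomes. Of their 11 tested genes, 2 were called higher and 7 lower at 40 h in 2i/LIF, with a median log2 change of -0.57. Serum-grown cells had 1 higher and 9 lower, with a median of -0.48. Vps26a, a retromer subunit, had a log2 change of -0.98 ± 0.05 and -0.88 ± 0.05, Vps35, its core subunit, of -0.57 ± 0.04 and -0.58 ± 0.04, and Vps35l, the retriever counterpart that works with Snx17, of -1.05 ± 0.07 and -0.80 ± 0.06. Of 8 genes for Rab prenylation and escort, 2 were higher and 4 lower in 2i/LIF and 1 higher and 4 lower in serum-grown cells. Chm, a Rab escort protein, changed by -1.87 ± 0.08 and -1.68 ± 0.07, and Gdi2, a GDP dissociation inhibitor, by 0.30 ± 0.04 in 2i/LIF and by -0.04 ± 0.04 in serum-grown cells, the second not called.

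Of 34 tested exchange factors, 14 were higher and 9 lower in 2i/LIF and 19 higher and 7 lower in serum-grown cells. Dennd4a, an exchange factor for Rab10, rose by 1.42 ± 0.14 and 1.4 ± 0.11, Dennd3, which acts on Rab12, rose by 1.70 ± 0.25 and 1.28 ± 0.21 while Rab12 itself fell, and Dennd2c changed by -1.80 ± 0.07 and -1.31 ± 0.07. Of 34 tested GTPase-activating proteins, 8 were higher and 14 lower, then 11 higher and 16 lower. Tbc1d13, which acts on Rab35, changed by -2.28 ± 0.05 and -2.87 ± 0.04, Tbc1d8 by -2.46 ± 0.15 and -2.91 ± 0.13, and Tbc1d16, which acts on Rab4a, by 1.93 ± 0.14 and 0.90 ± 0.10. Of 43 tested effectors and tethers, 15 were higher and 19 lower, then 15 higher and 22 lower. Rab11fip5, a Rab11 effector, went from a mean of 205 CPM at 0 h in 2i/LIF to 13.2 at 40 h (-3.96 ± 0.08) and from 206 to 12.3 CPM in serum-grown cells (-4.07 ± 0.08), whereas Myo5a, the motor that carries Rab27a, Rab11 and Rab10 vesicles, rose by 3.03 ± 0.10 and 2.48 ± 0.08.

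Some levels are less certain than their spread shows, because neither the strand setting of the counting nor its treatment of shared reads is given in the sources used here. In GENCODE's annotation of the same assembly, 62.4% of the exonic bases of Rab24 overlap Prelid1 on the opposite strand, 28.5% of Snx22 overlaps Ppib and 19.0% of Rab6a overlaps Mrpl48. Of the 50-base stretches in transcripts, 13.6% of those of Rab11b, 12.7% of Rab7, 9.88% of Snx2 and 9.80% of Rab5b recur in transcripts of other genes, read on either strand. These shares take in antisense neighbours as well as copies: 329 exonic bases of Rab11b overlap Gm17251 and 204 of Rab7 overlap Gm5577 on the opposite strand. For Rab43 74.5% recur in other genes, for Rab4b 58.1% and for Rab2b 57.0%. The most matches were in Gm45140, Gm21983 and Gm43766 in turn, gene models that are absent from the count table. Whether such matches lie at the member's own locus, and whether they affect its counts, was not tested. The length that the table gives for Rab7, 624 bases, is that of its coding sequence, so its 112 RPKM is not comparable with the other genes.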

How the data were processed

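RNA of 16 libraries was measured by sequencing, 2 per group, and the authors deposited 1 table of whole-number counts per gene with Entrez identifiers, symbols and gene lengths, not normalized. The submitters' processing notes name fastp, STAR, featureCounts and mm10 (GRCm38); their versions and the strand setting are not given in the sources used here. The labels' protocols describe TRIzol extraction and stranded poly(A) libraries, and give collection times of 24 and 40 h for cells from serum although libraries titled 12 h exist; the titles were followed. Of the 27179 genes, 14288 passed edgeR's filterByExpr (minimum count 10, minimum total 15). All 16 libraries were fitted in 1 edgeR 4.0.16 quasi-likelihood model (R 4.3.3, robust, TMM scaling, a term per group, 8 residual degrees of freedom, common biological coefficient of variation 3.19%), two-sided, with Benjamini-Hochberg adjustment over all genes and calls at an adjusted p under 0.05. The 17 comparisons were each later time against 0 h, the later steps, the media at each time, and the difference between the media in the change from 0 h. Standard errors are the log2 fold change over the square root of F. Ratios of counts at 8 or fewer at one time carry exact 95% intervals for counting error only, and a group at 0 was set to a floor of 3 counts per library. The script was tested on simulated data. Alternatives were DESeq2 1.42.0, its size factors, library size alone, no filter, a replicate block, only the groups compared, and each library left out. Members with full statistics are, per main comparison, up to 8 in each direction with the largest called change and a mean of at least 5 CPM, and the highest RPKM of each role; other members were named after their values were seen. Up to 3 genes in each direction were taken from each pathway list. Members and lists were chosen with earlier results of these data known. Promoters are RefSeq's for GRCm38.p6, exon overlaps and shared 50-base stretches come from GENCODE, and figures were drawn with matplotlib 3.10.9.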

Additional observations from a re-analysis of the deposited data

Results flagged for a closer look

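In the test of the difference itself, edgeR's interaction term, the change from 0 h differed between serum-grown and 2i/LIF cells for the members given here, as log2 values that are positive where the change in serum-grown cells was the more positive. At 12 h these were Rab15 (0.64), Rab12 (-0.461) and Rab38 (-0.926). At 24 h the positive values were those of Rab43 (0.849), Rab15 (0.841), Rab21 (0.581) and Rab1a (0.207). The negative ones at 24 h were Snx18 (-0.249), Rab18 (-0.251), Rab5c (-0.281), Rab11a (-0.289), Rab1b (-0.352), Rab12 (-0.512), Rab4a (-0.694), Rab29 (-0.996) and Rab38 (-1.16). At 40 h the positive values were those of Rab43 (1.48), Snx24 (0.957), Snx1 (0.587), Rab15 (0.585), Rab11b (0.534), Snx30 (0.494), Snx9 (0.485), Snx12 (0.44), Rab21 (0.408), Rab5b (0.359), Snx17 (0.28), Rab10 (0.273) and Rab1a (0.217). The negative ones at 40 h were Snx5 (-0.14), Rab5c (-0.233), Rab18 (-0.369) and Rab23 (-0.447). DESeq2 called 0 of the 3 at 12 h. Of the 13 at 24 h, 8 ended with at least one alternative (Rab11a, Rab12, Rab18, Rab1a, Rab21, Rab29, Rab38 and Snx18), and Rab15, Rab43, Rab1b, Rab4a and Rab5c held with all that were computed. Of the 17 at 40 h, 6 held with all that were computed (Rab43, Snx1, Rab15, Snx30, Snx12 and Rab18).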

How the results depend on the processing

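In the 10 comparisons recomputed member by member, no called value changed direction under these alternatives. With DESeq2 the counts of members called fell to 22 from 35 for the step from 24 to 40 h in serum-grown cells, to 12 from 24 and 8 from 18 for the media at 12 and 40 h, and to 0 from 3, 7 from 13 and 9 from 17 for the difference in exit at 12, 24 and 40 h; of the first of these, 5 members were at an unadjusted DESeq2 p under 0.05. Leaving out 1 library at a time gave 13 to 20 for the media at 12 h and 10 to 21 at 40 h, and 0 to 3, 7 to 12 and 11 to 16 for the difference in exit at 12, 24 and 40 h. The count of 0 came without serum-grown replicate 1 at 12 h, where 10 members were at an unadjusted edgeR p under 0.05. Leave-one-out counts at 40 h against 0 h were 53 to 54 of 59 in 2i/LIF and 50 to 52 of 54 in serum-grown cells. Library-size scaling moved the share of rises in the last step of serum-grown cells from 62.9% to 78.4%. Over all tested genes, same-numbered replicates did not deviate together (correlations over 28 pairs of groups between -0.0230 and 0.0331). Counting noise can hide a small shared part, so this does not tell whether they came from a shared culture. The replicate block gave 26 calls in place of 27 for the media at 0 h, 19 in place of 18 at 40 h, and the same count elsewhere. Only 2 libraries per group and low counts limit what can be called among members with a mean under 5 CPM.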
